A study of Saccharomyces cerevisiae with 18 samples.

Results

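Deletion of HAC1 was compared with wild type in yeast that produced α-amylase, using the 6 of 18 arrays in the series whose titles and strain labels name the α-amylase vector. Of these, 3 arrays came from the HAC1 deletion strain (dA) and 3 from the wild-type strain (WA), and all 5449 measured genes entered the comparison. Each array of the Affymetrix Yeast Genome 2.0 type held RNA from 1 batch bioreactor culture of Saccharomyces cerevisiae taken during exponential growth on glucose, so that n = 3 separate cultures for each strain. Both strains derive from CEN.PK 113-5D, a haploid of mating type a with the markers SUC2, MAL2-8c and ura3-52. In dA the HAC1 gene was replaced by the kanMX resistance cassette, and the deletion was made as a single strain, so that no second, independently built deletion tests it. Both dA and WA carry the same multicopy plasmid, p426-Yap-Amy, which is kept by its URA3 marker. On it the promoter of TDH3 drives an α-amylase gene behind a synthetic leader for secretion. According to the methods, the DNA of this gene was amplified from a strain of Saccharomyces kluyveri. The other 12 arrays are HAC1 deletion and wild type with the empty vector (dN and WN) and with a vector for insulin precursor (dI and WI). They entered the estimate of the spread and the tests of whether the deletion effect differed with the protein made.

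Hac1p is the activator through which yeast mounts its unfolded protein response. When unfolded proteins build up in the endoplasmic reticulum (ER), the membrane sensor Ire1p cuts an intron from HAC1 mRNA, the tRNA ligase Trl1p joins the ends, and the spliced message is translated. Hac1p then activates genes for ER chaperones, disulfide formation, glycosylation, degradation of misfolded proteins and vesicle traffic, so a strain without HAC1 cannot answer an ER load through this route. The gene YFL031W (HAC1) lies on chromosome VI, and the deletion was brought in as a PCR fragment made with 2 primers that bind either side of the replaced gene. They are shown because they mark the ends of this fragment, which holds the replaced gene and its flanking regions. They are written 5′ to 3′ with no part in capitals.
KT007: tatctatacaaaaaacggcagacaatgcag
KT008: ggagacagaacagtagaaaccactaagcga

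The HAC1 signal had log2 values of 1.60, 1.75 and 1.08 in the dA arrays, against 10.96, 10.69 and 10.59 in the WA arrays. A log2 difference of 1 is a 2-fold change. All dA values lay below the background level of the array, which is the 95th percentile of probe sets not paired with a yeast gene and stood at 4.46 to 4.49 in dA and 4.51 to 4.55 in WA, so HAC1 was at least 76.9-fold lower in dA. The a-cell genes STE2, MFA1, MFA2, BAR1 and AGA2 were above background in both strains, but so were the α-cell genes MF(ALPHA)1, at 5.40 to 5.46 in dA and 7.43 to 7.96 in WA, and SAG1, at 5.54 to 5.77 in dA and 5.62 to 5.91 in WA. The α-cell pheromone receptor STE3 was at background in the 3 dA arrays and at 5.77, 5.51 and 5.52 in WA. A further α-cell gene, MF(ALPHA)2, was at background in every dA and WA array. WA replicate 1 lay farther from its group than the other 5 arrays, with a residual SD of 0.180 against 0.0768 to 0.112, and dN replicate 3 stood apart most in the whole series at 0.361. The control probe sets for the 3′ and 5′ ends of ACT1 differed by 0.54 to 0.57 in dA and by 0.59 to 0.83 in WA on the log2 scale, and the part of this gap between the strains in the results was not tested.

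Of 5449 genes, 1262 changed between dA and WA at an adjusted p under 0.05 (limma, Benjamini-Hochberg), which is 23.2% of those tested. In dA, 523 were higher (9.60% of all genes) and 739 were lower (13.6%), while the median log2 fold change of all genes was 0.01. The changes were mostly small. Of the called genes 90.8% moved by less than 2-fold, with a median log2 fold change of 0.40 among those called higher and of -0.49 among those called lower. At 2-fold or more the balance was uneven, with 16 genes higher (0.294% of all) and 100 lower (1.84%), and at 4-fold or more 3 were higher and 17 lower. The called genes were spread over the whole range of signals, although 3.98% of the 502 genes with a mean log2 signal under 4.5 were higher, against 12.2% of the 1099 genes between 8 and 10. The median change of the genes on each of the 16 chromosomes lay between -0.03 and 0.04. The dA and WA arrays did not overlap for 45.7% of all genes, and for 519 of the called higher and 736 of the called lower genes. In a bulk culture a lower signal cannot tell fewer cells with the transcript from less transcript in each cell. The smallest p that an exact permutation test of 1 gene allows with 3 arrays against 3 is 0.1, and the calls therefore come from limma, which shares variance between genes. The number of higher genes depended most on single arrays, at 344 without WA replicate 1, 343 without dA replicate 2 and 831 without dN replicate 3. Both directions held for 761 genes, 263 higher and 498 lower, that were called in the full fit and in each fit without 1 of the 6 arrays.

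**Figure D1:**
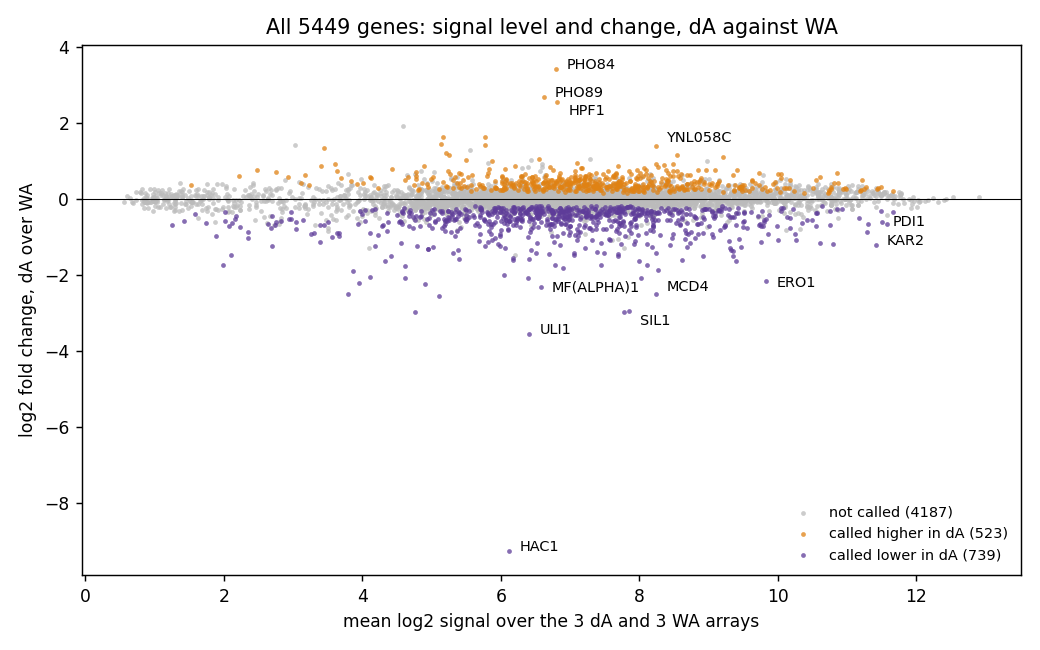
Each point is 1 of 5449 genes, placed by its mean log2 signal over the 6 arrays (horizontal) and its log2 fold change of dA over WA (vertical), with 523 genes called higher in orange, 739 called lower in purple and the rest in grey. HAC1 lies far below all others, a tail of lower genes reaches to ULI1 at -3.55, and PHO84, PHO89 and HPF1 are the called genes more than 4-fold higher.

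The lowest genes after HAC1 included several of the ER, several that were dim, and MF(ALPHA)1. ULI1, a target of the unfolded protein response with no settled function, read 4.53, 4.68 and 4.67 in dA, against 8.48, 8.02 and 8.03 in WA, and so changed by -3.55 (standard error 0.11, adjusted p = 6.02e-12). The dA arrays of ULI1 were barely over background while it was of middling signal in every WA array. YET2, which codes for a membrane protein of the ER related to mammalian BAP31, read 6.39, 6.20 and 6.28 in dA, against 9.65, 9.04 and 9.09 in WA (-2.97, standard error 0.42, adjusted p = 9.72e-05). For MCD4, whose product puts an ethanolamine phosphate on the growing glycosylphosphatidylinositol (GPI) anchor, the values were 7.16, 6.90 and 6.88 in dA, against 9.61, 9.32 and 9.53 in WA, a 5.68-fold lower signal (-2.51, standard error 0.10, adjusted p = 1.7e-10). None of these 3 genes had an overlap between the strains. Several of the 15 lowest genes were at background in all dA arrays, so that only bounds can be given. DOG1, a phosphatase of 2-deoxyglucose-6-phosphate, was at least 3.39-fold lower, with 6.48, 5.98 and 6.27 in WA. HOP1, a protein of meiotic chromosomes, was at least 3.74-fold lower, and HUG1, an inhibitor of ribonucleotide reductase, at least 2.92-fold. The bounds were 2.26-fold for YOL155W-A, 1.50-fold for SPS4 and 1.48-fold for YDL114W. DOG2, the paralog of DOG1, stayed well above background, at 8.01, 8.22 and 8.25 in dA and 9.89, 9.53 and 9.57 in WA (-1.50, adjusted p = 1.03e-07), and probes may not keep the near-identical DOG1 and DOG2 wholly apart. In all, 32 lower genes were at background in every dA array, and 63 of the called genes were at background in both strains.

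Most genes of the ER Hsp70 system fell. Of its 11 members, 8 fell and 3 did not pass, with a median of -1.10 against 0.01 for all genes. KAR2, the Hsp70 of the ER lumen, read 10.96, 10.71 and 10.74 in dA, against 12.15, 11.93 and 11.98 in WA, which is 2.32-fold lower (log2 -1.22, standard error 0.08, adjusted p = 3.39e-08). Its partners fell by more than KAR2 itself on the log2 scale in several cases. SIL1, a nucleotide exchange factor of Kar2p, read 6.47, 6.32 and 6.35 in dA, against 9.57, 9.18 and 9.22 in WA (-2.94, standard error 0.10, adjusted p = 3.03e-11). LHS1, the other exchange factor and itself related to Hsp70, read 7.64, 7.17 and 7.18 in dA, against 9.38, 9.16 and 9.05 in WA (-1.87, adjusted p = 6.63e-08). The 4 J-domain partners that start the ATPase of Kar2p fell by unequal amounts, with JEM1 at -2.07 (standard error 0.11), SCJ1 at -1.10 (0.10), ERJ5 at -1.08 (0.07) and SEC63, which works at the translocation channel, at -0.60 (0.08). FPR2, a prolyl isomerase of the ER, changed by -1.50 (adjusted p = 5.12e-07). The members that did not pass were the calnexin gene CNE1 (0.17), the cyclophilin gene CPR5 (-0.10) and ROT1 (0.14). KEG1, an ER protein needed for β-glucan synthesis, lies outside the list and changed by -0.82 (adjusted p = 5.48e-05).

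Of 7 genes for disulfide formation, 5 fell and 2 did not pass, with a median of -0.64. ERO1, the oxidase that passes electrons from protein disulfide isomerase to oxygen, read 8.87, 8.63 and 8.73 in dA, against 11.23, 10.68 and 10.81 in WA, a 4.48-fold lower signal (-2.16, standard error 0.12, adjusted p = 1.09e-08). PDI1, the essential isomerase and the brightest of the list, read 11.22, 11.20 and 11.16 in dA, against 11.94, 11.72 and 11.75 in WA, and its change of -0.61 (standard error 0.10, adjusted p = 0.000314) was the smallest of the 5. The strains did not overlap in either gene. The 3 nonessential relatives of PDI1 covered a wide span. MPD1 read 7.06, 6.90 and 6.99 in dA, against 9.23, 9.0 and 9.0 in WA (-2.09, adjusted p = 2.73e-09). EUG1 read 6.83, 6.76 and 6.71 in dA, against 8.22, 8.07 and 8.32 in WA (-1.43, adjusted p = 3.03e-07), and MPD2 changed by -0.64 (adjusted p = 0.000156). EPS1, a membrane-bound isomerase (0.30), and ERV2, a second thiol oxidase (-0.12), did not pass.

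**Figure D2:**
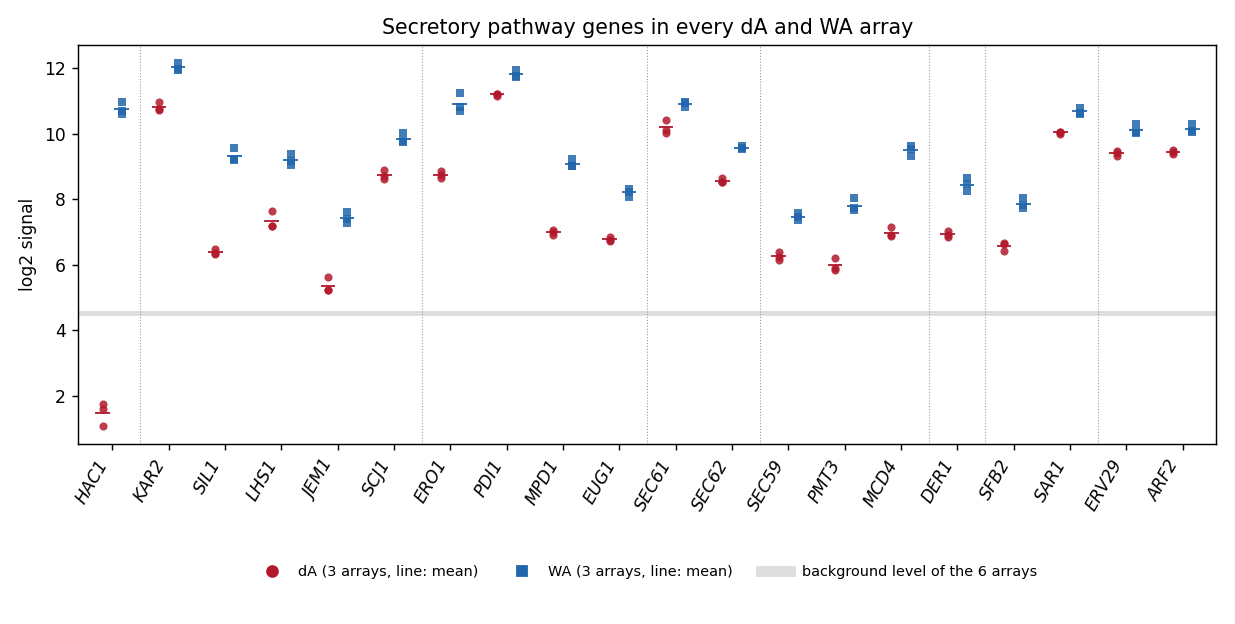
The log2 signal of 20 genes in each dA array (red circles) and WA array (blue squares), with the mean of each strain as a line and the background level of the 6 arrays as a grey band. From left to right the dotted lines part HAC1, chaperones, disulfide formation, translocation, glycosylation and GPI anchors, degradation, COPII, and the cargo receptor ERV29 with ARF2, and in each gene the 3 dA points lie below the 3 WA points.

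Genes of the translocation channel and of its post-translational partners were among those that fell. Of 24 translocation genes, 11 fell, 1 rose and 12 did not pass, with a median of -0.12. SEC61, the channel subunit, read 10.41, 10.12 and 10.03 in dA, against 10.96, 10.82 and 10.92 in WA (-0.71, standard error 0.09, adjusted p = 5.34e-05). The Sec62/Sec63 complex, which takes up finished chains, fell in all 4 measured subunits, with SEC62 at -1.01 (adjusted p = 3.2e-07), SEC72 at -0.86, SEC63 at -0.60 and SEC66 at -0.54. SBH1, the β subunit of the channel, changed by -0.64 (adjusted p = 2.61e-06), and SPC2, a subunit of signal peptidase, by -0.38. The gene that rose, for the β subunit of the receptor for the signal recognition particle, changed by 0.38 but was not called without WA replicate 1, dA replicate 1 or dA replicate 2. No call was made for the particle's own subunits SRP14 (0.08), SRP21 (-0.06), SRP54 (-0.01), SRP68 (-0.07), SRP72 (0.11) and SEC65 (-0.04). The number of lower genes in the list was 8 without WA replicate 1 and 8 without dA replicate 1.

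Genes for sugar supply and for the first steps of glycan assembly were among those that fell. Of 28 genes for the N-glycan precursor, 13 fell, 3 rose and 12 did not pass, with a median of -0.15, or 0.01 with genes at background set to their bound. SEC59, the kinase that makes dolichol phosphate, read 6.40, 6.23 and 6.13 in dA, against 7.58, 7.35 and 7.44 in WA (-1.20, standard error 0.08, adjusted p = 6.22e-08). The route to GDP-mannose fell at each of its enzymes, with PMI40, mannose-6-phosphate isomerase, at -1.09, SEC53, phosphomannomutase, at -1.15 and PSA1, GDP-mannose pyrophosphorylase, at -0.69. DPM1, which makes dolichol-phosphate mannose, changed by -0.92, and RER2, which builds the dolichol chain, by -0.88. ALG7, which transfers the first sugar, fell by 0.60 and ALG6, a late glucosyltransferase, by 0.51. The 3 that rose were CAX4 (0.36), a dolichyl pyrophosphate phosphatase, DIE2 (0.33), which adds the last glucose, and ALG11 (0.23), a mannosyltransferase. None of these 3 was called without WA replicate 1 or dA replicate 1, DIE2 and ALG11 were not called without WA replicate 2 or dA replicate 2 either, and 7 genes of the list rose without dN replicate 3. Of 13 genes of the oligosaccharyltransferase and of glycan trimming, 3 subunits of the transferase fell, OST2 (-0.66), SWP1 (-0.47) and WBP1 (-0.36), and 10 genes did not pass, among them the catalytic subunit STT3 (-0.07). The control probe sets for WBP1 changed by -0.39 at the 3′ end, -0.20 in the middle and -0.09 at the 5′ end, where the arrays of dA and WA overlapped.

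O-mannosylation and GPI anchors showed large changes in a few genes. Of 6 protein O-mannosyltransferases, 4 fell and 2 did not pass. PMT3 read 6.20, 5.85 and 5.89 in dA, against 8.03, 7.66 and 7.72 in WA (-1.82, standard error 0.11, adjusted p = 1.81e-08), followed by PMT1 at -1.25, PMT2 at -1.06 and PMT5 at -0.77, while PMT4 (0.33, adjusted p = 0.0748) and PMT6 (-0.06) did not pass. Pmt4p acts as a homodimer and the proteins of the 4 genes that fell act in mixed pairs. Of 29 genes for the GPI anchor, 7 fell, 5 rose and 17 did not pass, with a median of -0.03, or -0.01 with bounds. Next in size to MCD4 (-2.51) was GWT1, which acylates the inositol of the anchor, at 7.65, 7.43 and 7.44 in dA and 8.53, 8.35 and 8.50 in WA (-0.95, adjusted p = 9.27e-07). GPI16, a subunit of the transamidase, changed by -0.42. Those that rose included GPI1 (0.33) and SPT14 (0.48), both of the enzyme that starts the anchor. Without WA replicate 1, 3, dA replicate 2 or dA replicate 3, 4 genes of this list fell, and 3 rose without dA replicate 1 or 2.

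The genes of ER-associated degradation that fell belong to, or act with, the membrane complex that moves misfolded proteins out of the ER. Of 17 genes, 6 fell, 1 rose and 10 did not pass, with a median of -0.09. DER1, a part of the exit channel, read 7.04, 6.90 and 6.85 in dA, against 8.63, 8.24 and 8.45 in WA (-1.51, standard error 0.10, adjusted p = 3.48e-08). Its homolog DFM1 changed by -1.17, USA1, the scaffold, by -0.83, HRD1, the ubiquitin ligase, by -0.67, HRD3, its partner, by -0.49 and UBC7, the ubiquitin-conjugating enzyme, by -0.47. The parts that act in the cytosol, CDC48 (-0.10), NPL4 (-0.10) and UFD1 (-0.01), did not pass. The 1 that rose was RAD23 (0.19, adjusted p = 0.0366), whose call was lost without WA replicate 1, WA replicate 3, dA replicate 2 or dA replicate 3.

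Of 10 genes for the COPII coat, which carries cargo from the ER to the Golgi, 9 fell and the remaining one, SED4 (0.23), did not pass, with a median of -0.52. SFB2, a homolog of the cargo adaptor Sec24p, read 6.41, 6.62 and 6.67 in dA, against 8.02, 7.82 and 7.72 in WA (-1.28, standard error 0.10, adjusted p = 1.84e-07). SEC12, the exchange factor of the GTPase Sar1p, read 6.71, 6.87 and 6.78 in dA, against 7.52, 7.43 and 7.46 in WA (-0.69, adjusted p = 8.02e-06). The strains lay apart in every array for both. SAR1, whose GTPase starts the coat, changed by -0.64, the inner coat genes SEC23 and SEC24 by -0.49 and -0.55, the other Sec24p homolog SFB3 by -0.65 and the scaffold SEC16 by -0.43. Of 21 cargo receptor genes, 6 fell, 3 rose and 12 did not pass, and the median was 0.03. ERV29, the receptor for the α-factor precursor, changed by -0.72 (adjusted p = 1.9e-05), and the p24 genes ERP1, ERP2, EMP24 and ERV25 by -0.68, -0.67, -0.61 and -0.50. The other p24 genes went otherwise, with ERP4 higher by 0.28 and ERP3 by 0.31, although the call of ERP3 was lost without WA replicate 2, dA replicate 1 or dA replicate 3. The number of rising receptor genes was 1 without WA replicate 2 or dA replicate 1.

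Of 22 genes for the COPI coat and retrieval, 11 fell, 1 rose and 10 did not pass, with a median of -0.19, and the lower count was 7 without WA replicate 1. SEC22, a SNARE of this route, rose by 0.34 and lost its call without WA replicate 1, WA replicate 2, dA replicate 2 or dA replicate 3. The GTPase gene ARF2 (-0.70, adjusted p = 7.67e-06) and the coat genes RET3 (-0.71), RET2 (-0.43), SEC26 (-0.48) and SEC27 (-0.45) were among those that fell. ERD2, the receptor that brings escaped ER proteins back, changed by -0.54 (adjusted p = 0.0115) and was not called without WA replicate 1. Of 26 genes for Golgi tethers, Rabs and SNAREs, 6 fell, 1 rose and 19 did not pass, led by the SNARE gene BOS1 (-0.62) and its partner SLY1 (-0.51). YIF1, the gene that rose (0.25), lost its call without WA replicate 1, WA replicate 3, dA replicate 1 or dA replicate 2, and 3 rose without dN replicate 3. Among 21 Golgi mannosyltransferases, 4 fell, 2 rose and 15 did not pass. The share that rose was close to the 9.60% of all genes, and 19.05% fell, beside 13.6% of all genes. HOC1 read 8.29, 8.13 and 8.03 in dA, against 9.42, 9.20 and 9.28 in WA (-1.15, adjusted p = 1.03e-07), and KTR1 9.38, 9.13 and 9.09 in dA, against 10.43, 10.25 and 10.28 in WA (-1.12, adjusted p = 2.93e-07). OCH1, which starts the outer mannan chain, changed by -0.79 (adjusted p = 0.0194) and lost its call without WA replicate 1, dA replicate 2 or dA replicate 3, and KTR5 rose by 0.52. In this list 4 genes rose without dA replicate 3 and 5 without dN replicate 3. Of 22 genes for exocytosis and post-Golgi SNAREs, 3 fell and 19 did not pass, a share close to the 13.6% of all genes that were lower, and the lower count was 1 without dA replicate 1. The leader-processing protease genes KEX2 (0.07), KEX1 (0.03) and STE13 (-0.03) did not pass. Whether each of these proteases acts on the leader of the α-amylase vector was not tested. In their list of 13 with the vacuolar proteases, 1 rose, the yapsin gene YPS7 (0.33), which lost its call without WA replicate 2 or dA replicate 1, and 2 rose without WA replicate 1 or dN replicate 3. Over the 16 lists of the secretory pathway with each gene once, 96 of 274 genes fell and 19 rose, beside 13.6% and 9.60% of all genes.

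Within the signalling branch itself, HAC1 was the gene that fell. IRE1 read 6.36, 6.05 and 6.07 in dA, against 6.08, 6.08 and 6.14 in WA (0.06, adjusted p = 0.672), and TRL1 changed by 0.13 (adjusted p = 0.598), both with overlapping arrays. PTC2, a phosphatase that acts on Ire1p, rose, at 8.19, 8.29 and 8.16 in dA and 7.88, 7.88 and 7.90 in WA (0.32, adjusted p = 0.00584). GCN4, the activator of amino acid synthesis that can act with Hac1p, was at 0.01 (adjusted p = 0.96). Of the nearest 6 measured neighbours of HAC1 on chromosome VI, RPL22B, the third to the left, rose by 0.78 (adjusted p = 0.0126, not called without WA replicate 1), and MIL1 (-0.13), RIM15 (0.15), AGX1 (0.04), CAK1 (-0.37) and CAF16 (0.06) did not pass.

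Far fewer genes rose by 2-fold than fell, and the highest included transporters and cell surface proteins. PHO84, the high-affinity phosphate transporter, read 8.91, 8.08 and 8.52 in dA, against 5.38, 5.18 and 4.69 in WA, a 10.7-fold higher signal (3.42, standard error 0.80, adjusted p = 0.00577). PHO89, the sodium-coupled phosphate transporter, read 8.49, 7.42 and 8.0 in dA, against 5.36, 5.40 and 5.07 in WA (2.70, standard error 0.76, adjusted p = 0.0176). Both had dA arrays clear of all WA arrays, yet PHO84 also varied within other strains, with an SD of 2.01 in dN and 1.62 in WN, and PHO89 was not called without WA replicate 3 or dA replicate 1. HPF1, a mannoprotein of the cell wall, read 8.23, 7.98 and 8.06 in dA, against 5.36, 5.53 and 5.74 in WA, and was 5.83-fold higher (2.54, standard error 0.26, adjusted p = 3.66e-06). YNL058C, a gene of unknown function, read 9.10, 8.84 and 8.87 in dA, against 7.52, 7.58 and 7.51 in WA (1.40, standard error 0.11, adjusted p = 2.77e-07). The WA arrays of YNL058C lay within 0.07 of each other. PLB2, a phospholipase B, was at background in WA and at least 2.52-fold higher, and SFK1, a plasma membrane protein, rose by 1.01 (adjusted p = 0.00062). YDL241W (1.63), YJL218W (1.22), INA1 (1.43) and DSE4 (1.05), which codes for a glucanase that parts daughter cells, complete this group, with 1 of 3 WA arrays of YDL241W and of YJL218W at background. INA1 lost its call without any 1 of the 6 arrays, and DSE4 without WA replicate 1 or dA replicate 1.

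Most phosphate genes did not pass. Of 23 measured, 5 rose, 2 fell and 16 did not pass, with a median of 0.08, or 0.04 with bounds. The secreted phosphatase PHO5 read 6.70, 5.53 and 6.36 in dA, against 4.93, 4.90 and 4.88 in WA, clear of overlap but with an adjusted p of 0.050 for a log2 fold change of 1.29. The regulators PHO4 (-0.07), PHO80 (0.04), PHO81 (0.23) and PHO85 (0.01) did not pass. Among the low-affinity transporters PHO91 rose by 0.34 and PHO87 by 0.23 (not called without WA replicate 1 or dA replicate 1). VTC3, of the vacuolar polyphosphate polymerase, fell by 0.72 (adjusted p = 0.00362), while VTC1 of the same complex was at 0.33 (adjusted p = 0.0476) and lost its call without any 1 of the 6 arrays. The number of rising genes was 3 without WA replicate 1 or 3, 2 without dA replicate 1 and 8 without dN replicate 3.

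Genes of methionine and S-adenosylmethionine rose in part. Of 27 genes for sulfate assimilation and methionine, 8 rose, 2 fell and 17 did not pass, with a median of 0.18. SAM1, an S-adenosylmethionine synthetase, read 9.78, 9.79 and 9.82 in dA, against 9.02, 9.05 and 9.01 in WA (0.77, standard error 0.07, adjusted p = 5.12e-07). MET6, methionine synthase, changed by 0.66 (adjusted p = 7.49e-05). MMP1 and MHT1, the permease for S-methylmethionine and the enzyme that uses it, rose by 1.15 and 1.02, with WA arrays of MMP1 at 5.04, 4.60 and 4.38, of which 1 was at background. MET2, which activates homoserine, read 5.80, 5.98 and 6.17 in dA, against 5.25, 4.03 and 3.77 in WA (adjusted p = 0.0112), and was not called without WA replicate 3. Of its WA arrays 2 were at background, so no fold is given. The sulfate transporter SUL2 fell by 1.30 (adjusted p = 8.31e-05), at 5.33, 5.45 and 5.44 in dA and 7.05, 6.53 and 6.54 in WA. Without WA replicate 3 the list had 5 higher genes, and without WA replicate 1, WA replicate 2 or dA replicate 1 it had 1 lower gene.

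Of 30 genes for cytosolic and mitochondrial chaperones under the heat shock factor Hsf1p, 11 rose, 1 fell and 18 did not pass (median 0.18). BTN2, which sequesters misfolded proteins, read 9.60, 9.82 and 9.86 in dA, against 8.92, 8.61 and 8.44 in WA (1.10, standard error 0.19, adjusted p = 0.000645), and its relative CUR1 changed by 0.60. STI1, a cochaperone of Hsp90, rose by 0.49 (adjusted p = 0.000182), HSP82, the inducible Hsp90, by 0.57, SSA4, an inducible Hsp70, by 0.82 and the mitochondrial MDJ1 and HSP60 by 0.51 and 0.29. The constitutive Hsp90 gene HSC82 (0.10), the disaggregase HSP104 (0.11) and the Hsp70 gene SSA1 (0.18) did not pass, and CDC37, a kinase-specific cochaperone, fell by 0.37. The cytosolic proteasome, also a protein quality system, had no called gene among 34 by limma (median 0.04), with 2 higher at an unadjusted p under 0.05 and 12 higher with array quality weights.

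Of 70 genes for the mitochondrial ribosome, 40 rose and 30 did not pass, with a median of 0.37. The median log2 signal of these 70 genes was 7.98, 8.02 and 8.05 in the dA arrays, against 7.60, 7.79 and 7.81 in the WA arrays, so that WA replicate 1 lay lowest. Without WA replicate 1 the count was 20, without dA replicate 2 it was 25 and without dA replicate 3 it was 26. MRPL1 read 7.94, 7.88 and 7.89 in dA, against 7.05, 7.23 and 7.25 in WA (0.73, standard error 0.10, adjusted p = 7.77e-05). MRPL3 rose by 0.75, MRP13 by 0.86 and RML2 by 0.78, and all 4 genes remained called in each fit without 1 of the 6 arrays. Of 129 genes of the cytosolic ribosome, 14 rose, a share close to the 9.60% of all genes, 1 fell and 114 did not pass, with a median of 0.21. Here the array medians were 10.92, 10.98 and 10.97 in dA and 10.49, 10.84 and 10.82 in WA, and the count of higher genes hung on single arrays, at 1 without WA replicate 1, 3 without dA replicate 2 or dA replicate 3, 8 without dA replicate 1, 34 without WA replicate 2 and 44 without dN replicate 3. RPS14B had the smallest adjusted p of those that rose, at 9.36, 9.40 and 9.28 in dA and 8.15, 8.94 and 8.65 in WA (0.77, adjusted p = 0.00241), and the paralog copy RPL15B was the 1 that fell (-0.37). Paralogs of ribosomal proteins share much of their sequence, so signals of single copies are uncertain. Of 55 genes of ribosome biogenesis, none was called by limma (median 0.17), with 2 higher at an unadjusted p under 0.05 and 2 higher and 1 lower with array quality weights.

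Calls among genes of amino acid synthesis went in both directions. In the first list given here 26.8% of genes rose and 7.32% fell, beside 9.60% and 13.6% of all genes. Of 41 genes for histidine, aromatic, branched-chain and serine synthesis, 11 rose, 3 fell and 27 did not pass, with a median of 0.20, and 6 rose without dA replicate 2, 5 without dA replicate 3 and 20 without dN replicate 3. The pentafunctional ARO1 rose by 0.55, the transaminase ARO8 by 0.39 and ARO3, which opens the aromatic route, by 0.46, whereas LEU1, isopropylmalate isomerase, fell by 0.60 (adjusted p = 7.04e-05) and the cytosolic branched-chain transaminase BAT2 by 0.80. In the list of arginine and lysine genes, 4 of 16 rose and 3 fell. ARG7 (0.60), ARG2 (0.60), ARG3 (0.46) and ARG4 (0.23) of the arginine route rose, and LYS9 (-0.93), LYS20 (-0.74) and LYS21 (-0.32) of the lysine route fell. LYS20, a homocitrate synthase, read 7.72, 7.83 and 7.92 in dA, against 8.95, 8.47 and 8.28 in WA, and LYS9, saccharopine reductase, 8.18, 8.29 and 8.26 in dA, against 9.34, 9.14 and 9.03 in WA (adjusted p = 1.5e-07). LYS21, the other homocitrate synthase, was not called without dA replicate 1, and 6 genes of the list fell without dN replicate 3.

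Among genes of carbon use, the hexose transporters HXT7 and HXT1 went opposite ways. HXT7, a high-affinity glucose transporter whose close copy HXT6 cannot be told from it by probes, read 9.30, 9.08 and 8.96 in dA, against 7.71, 8.16 and 8.02 in WA (1.15, standard error 0.23, adjusted p = 0.00185). HXT1, the low-affinity transporter, read 8.07, 7.72 and 7.68 in dA, against 9.16, 8.47 and 8.69 in WA (-0.95, adjusted p = 0.0188), and lost its call without WA replicate 1, dA replicate 2 or dA replicate 3. The glucose sensors SNF3 and RGT2 rose by 0.44 and 0.31. Of 17 genes in this list 3 rose, 2 fell and 12 did not pass, with 6 rising without dN replicate 3. The shares were 17.65% higher and 11.76% lower, beside 9.60% and 13.6% of all genes, so the lower share was close to that of all genes. The lower count fell to 1 without WA replicate 1, WA replicate 2, WA replicate 3 or dA replicate 1, and HXT1 and MIG2, the 2 that fell, both lost their calls without dA replicate 2 or dA replicate 3. The glycerol genes GPP1, glycerol-3-phosphatase, and GPD2, glycerol-3-phosphate dehydrogenase, fell by 0.66 and 0.58, and GPD1 (-0.50) did not pass. Of the 11 glycerol genes, 2 fell, 1 rose and 8 did not pass, with a median of -0.24, or -0.04 with bounds. That is 18.2% lower and 9.09% higher, beside 13.6% and 9.60% of all genes. Without dN replicate 3, 6 of the 11 fell. In the pentose phosphate pathway 4 of 13 fell and 1 rose, which is 30.8% lower and 7.69% higher, beside 13.6% and 9.60% of all genes. Among those that fell was TKL2, the minor transketolase, at 4.77, 4.91 and 4.88 in dA and 5.83, 6.00 and 5.63 in WA (-0.97, adjusted p = 9.16e-05). The lowest log2 fold change in this list was -1.28, in another member. The main enzymes ZWF1 (0.05), TKL1 (0.01), TAL1 (-0.16) and GND1 (-0.17) did not pass, and 2 fell without WA replicate 1 or dA replicate 1. Of 8 maltose genes 2 fell, the maltase gene MAL32 (-0.80) and the permease gene MAL11 (-0.77), which belong to families with near-identical members.

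Of 25 genes for peroxisomes and fatty acid oxidation, 12 fell and 13 did not pass, with a median of -0.30, or -0.11 with bounds. POX1, acyl-CoA oxidase, was at background in dA and at 5.50, 5.47 and 5.53 in WA, at least 2.03-fold lower (adjusted p = 0.000924). SPS19, a dienoyl-CoA reductase, read 5.61, 5.85 and 5.90 in dA, against 7.48, 7.04 and 7.12 in WA (-1.43, adjusted p = 0.0024), TES1, a thioesterase, changed by -0.90 and PEX11, which divides peroxisomes, by -0.52. The importer genes PEX5 (0.08) and PEX13 (-0.10) did not pass. Of 26 thiamine, biotin and NAD genes, 8 fell, 1 rose and 17 did not pass, with a median of -0.46, or -0.37 with bounds, and 15 fell without dN replicate 3. THI20, a kinase of the thiamine route, read 7.10, 7.40 and 7.23 in dA, against 9.77, 8.49 and 8.66 in WA (-1.73, standard error 0.30, adjusted p = 0.000626), with WA replicate 1 the highest by far. THI13, one of several near-identical genes, changed by -1.74, and BNA2, which opens NAD synthesis from tryptophan, by -1.20. The gene that was called higher, SNO1 (adjusted p = 0.0409), was at background in both strains and lost its call without any 1 of the 6 arrays.

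Calls were also made among mating, hypoxic, seripauperin and ergosterol genes. Of 20 mating genes, 10 fell and 10 did not pass, with a median of -0.34, or -0.13 with bounds. Some of the 10 that fell were at background in both strains, and the lower count was 9 without WA replicate 2 or any 1 dA array. MF(ALPHA)1, the main α-factor gene, which an a cell normally keeps off, read 5.40, 5.46 and 5.41 in dA, against 7.43, 7.78 and 7.96 in WA, a 4.93-fold lower signal (-2.30, standard error 0.17, adjusted p = 1.26e-07). The a-factor gene MFA1 read 8.61, 8.70 and 8.64 in dA, against 10.20, 9.86 and 9.93 in WA (-1.35, adjusted p = 3.31e-07). The pheromone-induced genes FUS1 and AGA1 changed by -1.34 and -0.93, and the a-factor gene MFA2 (0.07) and the receptor STE2 (0.23) did not pass. Of 16 hypoxic genes 4 rose and 12 did not pass, with a median of 0.24, or 0.06 with bounds, since TIR4 and TIR2 were at background in both strains. In this list 8 rose without dN replicate 3, and 2 rose without WA replicate 1, WA replicate 2, dA replicate 2 or dA replicate 3. HEM14, an enzyme of heme synthesis, rose by 0.42 (adjusted p = 0.00315). Of 13 seripauperin genes, 5 fell, led by PAU8 at 4.76, 4.73 and 4.64 in dA and 6.18, 6.07 and 5.94 in WA (-1.35), and their near-identical sequences make single members uncertain. Of 27 ergosterol genes, 5 rose, 2 fell and 20 did not pass (median 0.07). That is 18.5% higher and 7.41% lower, beside 9.60% and 13.6% of all genes. The transcription factor UPC2 changed by 0.57, ERG28 by 0.47 and ERG27 by -0.43, and 2 rose without WA replicate 1 and 3 without dA replicate 1, while 1 fell without WA replicate 2 or dA replicate 3 and 4 fell without dN replicate 3. The 21 lists summarised together, each under 25% called, include the proteasome and ribosome biogenesis. In them 42 of 582 memberships were higher and 43 lower, beside 9.60% and 13.6% of all genes. Their list medians ran from -0.17 to 0.19, or -0.11 to 0.18 with bounds.

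**Figure D3:**
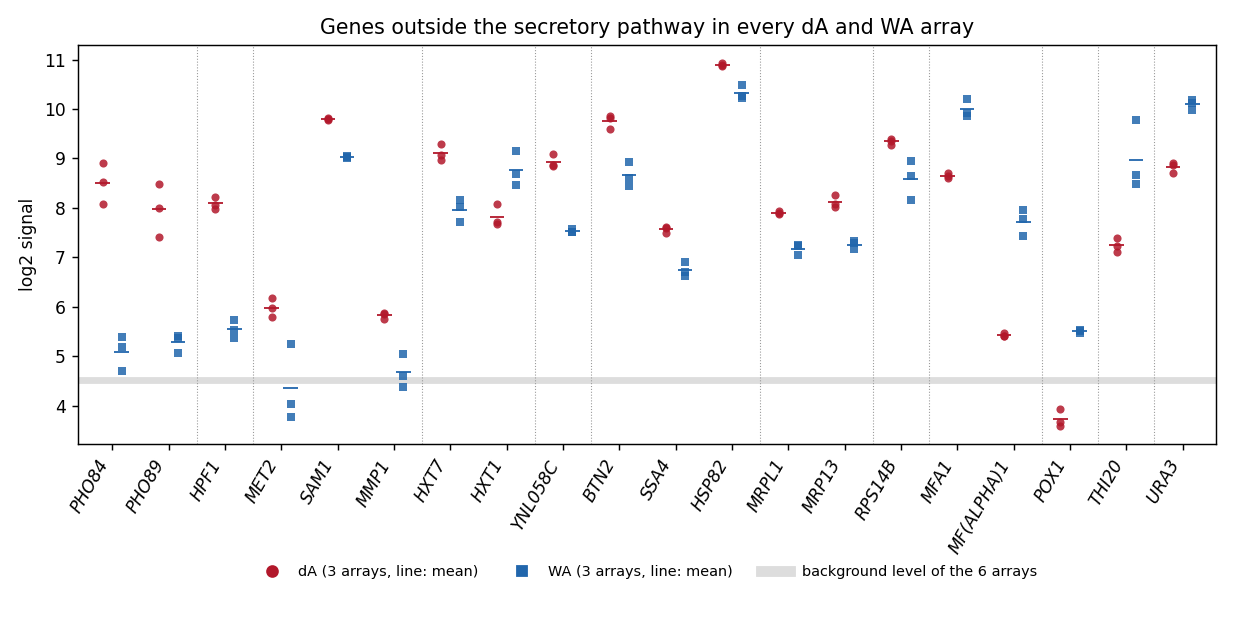
The log2 signal of 20 genes outside the secretory pathway in each dA array (red circles) and WA array (blue squares), with strain means as lines and the background level as a grey band. PHO84, PHO89 and HPF1 lie more than 2 log2 units higher in dA, MF(ALPHA)1 more than 2 lower, and the 3 POX1 points of dA lie below the background band.

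**Figure D4:**
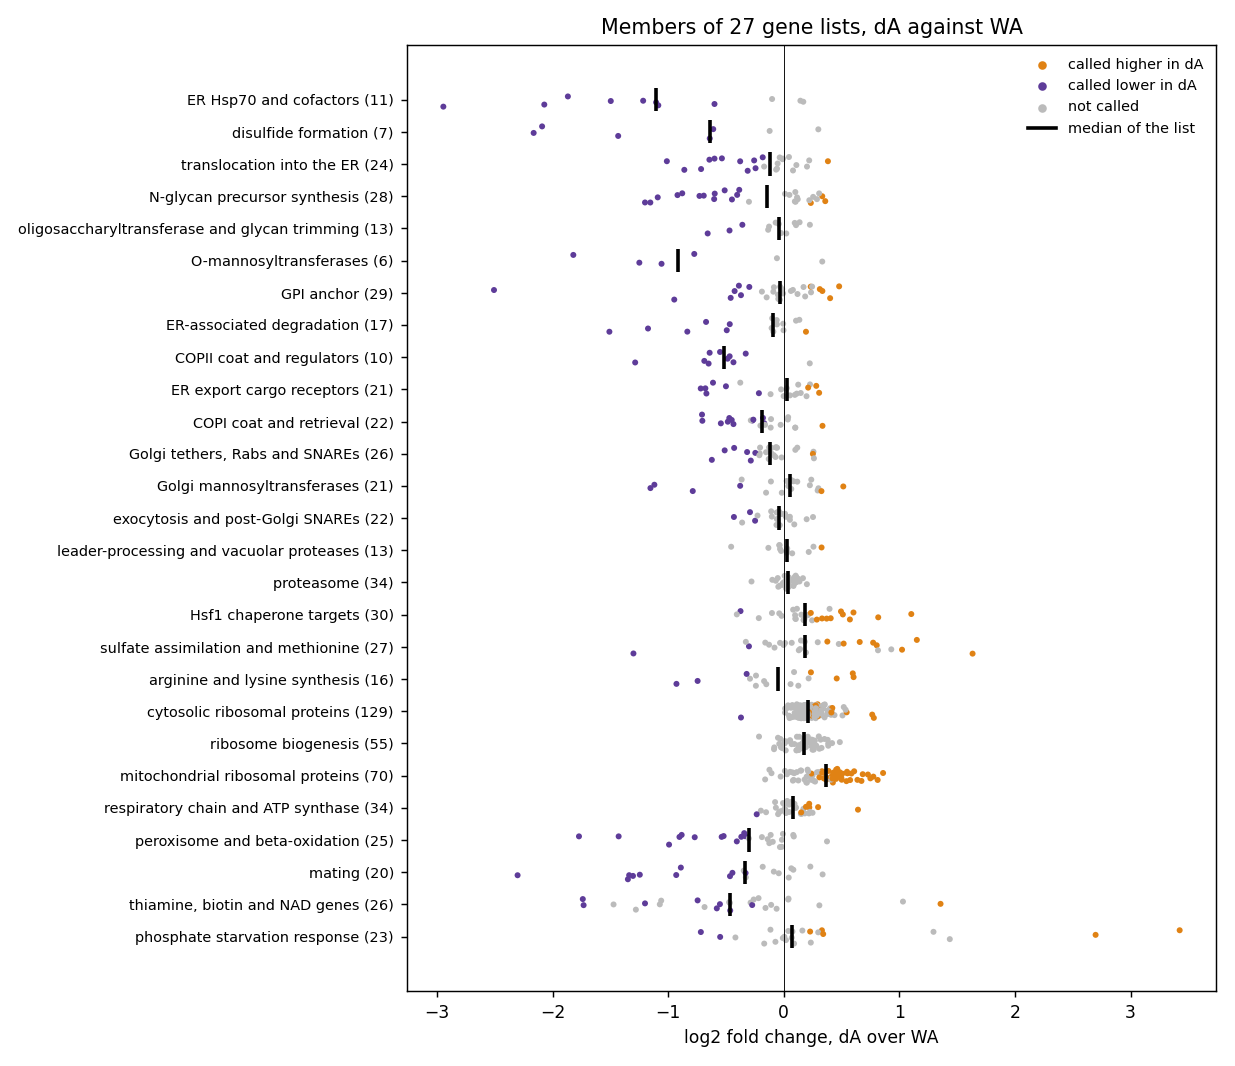
Each point is a gene, placed by its log2 fold change of dA over WA (horizontal) in 1 of 27 lists (rows, with the number of genes measured), orange where called higher, purple where called lower and grey where not called. The black bars mark list medians, which lie at -1.10 for the ER Hsp70 system, -0.64 for disulfide formation, -0.52 for COPII and 0.37 for mitochondrial ribosomal proteins.

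Of the genes tied to the expression plasmid, URA3 fell and TDH3 did not pass. URA3, whose chromosomal copy is inactive in these strains and whose active copy is on the plasmid, read 8.71, 8.86 and 8.91 in dA, against 10.19, 10.13 and 9.98 in WA, a 2.41-fold lower signal (-1.27, standard error 0.09, adjusted p = 6.63e-08). The 3 arrays of dA lay more than 1 log2 unit under every WA array. TDH3, whose promoter drives the α-amylase gene, read 12.94, 12.93 and 12.91 in dA, against 12.85, 12.90 and 12.87 in WA (0.06, adjusted p = 0.435), and its paralog TDH1 fell by 0.55 (adjusted p = 0.00793). Of 12 genes for pyrimidine synthesis, 3 fell, 1 rose and 8 did not pass. That is 25% lower and 8.33% higher, beside 13.6% and 9.60% of all genes. With URA3 fell URA6, uridylate kinase (-0.63), and URA10, the minor orotate phosphoribosyltransferase (-0.75). URA2, which opens the pathway, rose by 0.25 but was not called without WA replicate 1, dA replicate 2 or dA replicate 3, and 2 genes rose without dN replicate 3. The TDH3 signal is that of the chromosomal gene, and the α-amylase transcript itself was not analysed here. The part of plasmid load in the other results was not tested.

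The deletion effect with α-amylase was then set against the effect of the same deletion with each other vector, as a difference of differences, dA over WA minus dN over WN and dA over WA minus dI over WI. For the empty vector 73 of 5449 genes differed (1.34%), 27 above 0 (0.496%) and 46 below (0.844%), and for insulin precursor 87 differed (1.60%), 28 above 0 (0.514%) and 59 below (1.08%). Both tests use the same dA and WA arrays, so a gene that differs in both is not an independent second finding. Median changes of the ER Hsp70 list were -1.10 with α-amylase, -1.43 with the empty vector and -1.44 with insulin precursor, and for disulfide formation they were -0.64, -0.96 and -0.74. EUG1 was the member of these lists with a called difference. Its log2 fold change was -1.43 for dA over WA, -2.37 for dN over WN and -2.16 for dI over WI, so the fall was smaller with α-amylase by 0.93 (adjusted p = 0.0117) and by 0.73 (adjusted p = 0.0356), and the second difference was lost without any 1 of 10 of the 12 arrays. YNL058C changed by 1.40 in dA, against 0.27 with the empty vector and 0.48 with insulin precursor, and both differences passed (1.13, adjusted p = 0.00226 and 0.93, adjusted p = 0.00563). RGI1, a gene of respiratory growth, showed 0.94 in dA and 0.07 in dN, a difference of 0.87 (adjusted p = 0.0166) that was lost without WA replicate 3 or dA replicate 2. The counts moved with single arrays. For the empty vector they were 28 and 40 without WA replicate 2 and 3, 41, 39 and 48 without dA replicate 1, 2 and 3, 42 and 38 without WN replicate 1 and 2, 44 without the dN array that has no number in its title and 400 without dN replicate 3. For insulin precursor they were 48 without WA replicate 2, 57, 51 and 57 without dA replicate 1, 2 and 3, 54, 52 and 54 without WI replicate 1, 2 and 3, 57 and 49 without dI replicate 1 and 3 and 361 without dN replicate 3.

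Genes below 0 included some of mating and lysine synthesis and the plasmid marker. MF(ALPHA)1 fell by 2.30 with α-amylase, against changes of -0.98 with the empty vector and -0.21 with insulin precursor (differences of -1.32, adjusted p = 0.0134, and -2.09, adjusted p = 0.000463). Its wild-type signals were 7.43, 7.78 and 7.96 in WA, 4.99, 5.20 and 5.31 in WN and 5.72, 6.12 and 6.19 in WI, so the level in WA was the highest of the wild-type strains, and 2 of 3 dN arrays were at background. AGA1 differed by -0.73 (adjusted p = 0.003) and -0.89 (adjusted p = 0.000504), and MFA1 from insulin precursor by -0.84 (adjusted p = 0.0102). Of the 16 arginine and lysine genes, 8 differed from the empty vector below 0 and 3 from insulin precursor. LYS20 read 9.05, 8.95 and 8.90 in dN, against 7.91, 7.97 and 7.70 in WN, so that its effect was opposite to that in dA (difference -1.85, adjusted p = 0.000158), and LYS9 differed by -1.36 (adjusted p = 3.15e-06) and -0.93 (adjusted p = 0.000358). URA3 read 12.30, 12.49 and 12.20 in dN, against 12.14, 12.13 and 11.96 in WN, far above the α-amylase strains, and its deletion effect differed by -1.53 (adjusted p = 8.09e-06). With insulin precursor URA3 read 9.97, 10.13 and 9.97 in dI, against 10.93, 10.86 and 10.81 in WI, so it fell there too (-0.84, adjusted p = 4.16e-06), and the difference of -0.43 was not called (adjusted p = 0.106). Against insulin precursor, NCA3, linked to the supply of mitochondrial ATP synthase, had the most negative difference (-3.58, adjusted p = 0.00923), with 6.66, 6.82 and 6.79 in dA, 7.89, 7.69 and 7.45 in WA, 8.35, 8.30 and 8.56 in dI and 5.70, 5.82 and 5.72 in WI. The proline permease gene PUT4 (-1.96, adjusted p = 0.000358, with 2 of 3 dA arrays and 1 WI array at background) and the maltose genes MAL32 (-1.77) and MAL11 (-1.56) followed, and all 3 were higher in dI than in WI by 1.26, 0.97 and 0.79. Above 0 stood SAM1 (0.75, adjusted p = 0.000637), the flavohemoglobin gene YHB1 (1.00, adjusted p = 0.00966) and COS12 (0.97, adjusted p = 0.000773).

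**Figure D5:**
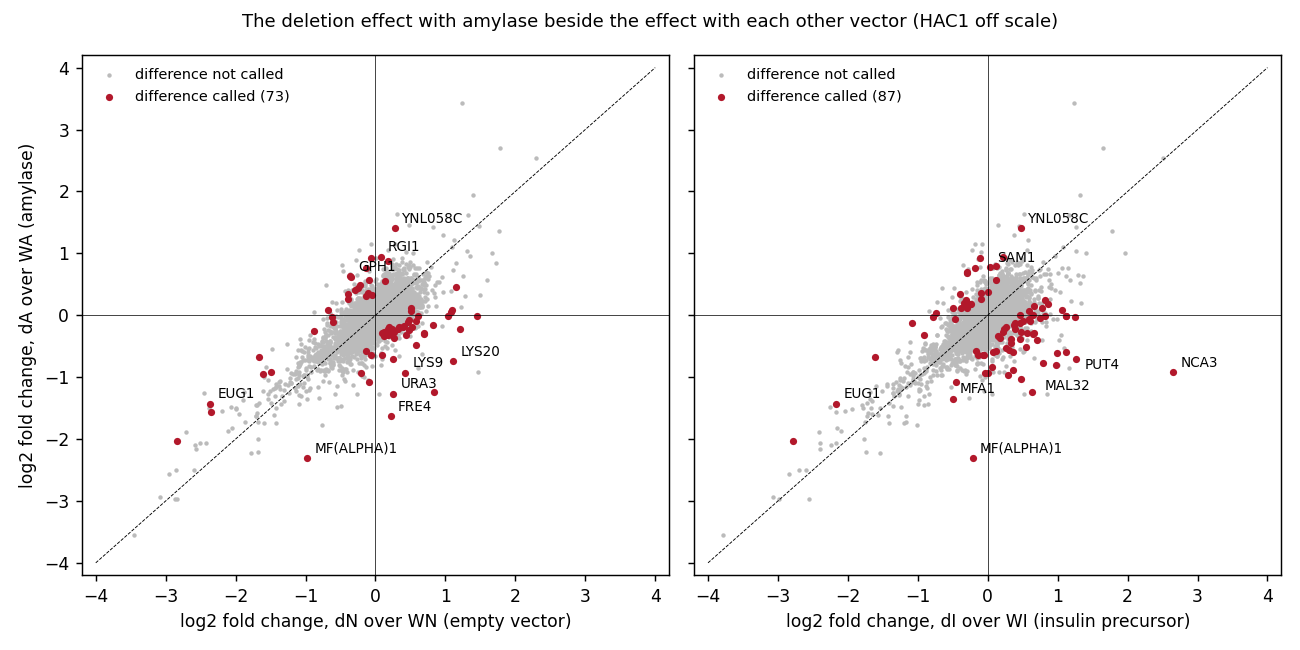
Each point is a gene, with the log2 fold change of dA over WA (vertical) against that of dN over WN (left, horizontal) or of dI over WI (right, horizontal), and the dashed line marks equal change. Red points are the 73 and 87 genes whose 2 effects differed by the test, and EUG1 and YNL058C lie above the line in both panels while MF(ALPHA)1 lies below it in both.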

How the data were processed

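The series holds 18 single-colour arrays, from 3 cultures of each of 6 strains. According to the methods, the authors made the deposited log2 values by robust multi-array average background correction on perfect-match probes, normalized arrays against each other by qspline and summarised probe sets by median polish. Here 5449 probe sets paired with 1 gene each were fitted with limma 3.58.1 in R 4.3.3, as 6 strain means over all 18 arrays (12 residual degrees of freedom), and p-values were adjusted by Benjamini-Hochberg over all genes. Calls need an adjusted p under 0.05. The fit was tested on simulated data in which each gene had 1 spread for all arrays. The real arrays differed in residual SD, from 0.0768 to 0.361, so that test does not cover arrays of unequal spread. Arrays carry no counts, so their number limits the precision. A signal at or under the 95th percentile of the other probe sets was taken as background and entered folds as a bound.

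Genes named were the 15 highest and 15 lowest of those called, without overlap and above background, the 8 highest and 8 lowest of each difference between vectors (some are given in the closing section), fixed chaperone and disulfide genes, neighbours of HAC1, and for each list up to 6 by smallest adjusted p plus members whose role was needed. Among others, TDH1, SEC22, YIF1 and MIG2 were named after their values were seen. Lists under 25% called with a median under 0.2 were summarised together. Counts of called members in every list stand beside 9.60% higher and 13.6% lower among all genes. The strains, the lists and their members were chosen with earlier results of these data known. Alternatives were array quality weights, other normalizations, filters and thresholds, only the strains compared, the replicate number as a block, and leaving out 1 array at a time of the strains compared, or dN replicate 3. One WN label describes another way of breaking cells, and 1 dN title has no replicate number.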

Additional observations from a re-analysis of the deposited data

Results flagged for a closer look

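The deletion effect with α-amylase (dA over WA) differed by the test from that with the empty vector (dN over WN) for 11 genes with values in the Results section. Further genes stand under the other observations below. The difference was above 0 for YNL058C (1.13), EUG1 (0.93) and RGI1 (0.87), and below 0 for LYS20 (-1.85), URA3 (-1.53), LYS9 (-1.36), MF(ALPHA)1 (-1.32), PUT4 (-0.95), AGA1 (-0.73), ARG3 (-0.70) and LYS21 (-0.55).

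From insulin precursor (dI over WI) the effect differed above 0 for YHB1 (1.00), COS12 (0.97), RPS14B (0.95), YNL058C (0.93), SAM1 (0.75), EUG1 (0.73) and RGI1 (0.72). It differed below 0 for NCA3 (-3.58), MF(ALPHA)1 (-2.09), PUT4 (-1.96), MAL32 (-1.77), MAL11 (-1.56), TKL2 (-1.26), LYS9 (-0.93), AGA1 (-0.89), MFA1 (-0.84), LEU1 (-0.67), URA2 (-0.56), RPL15B (-0.55) and GPD2 (-0.41). Some arrays of PUT4, and 2 of 3 dN arrays of MF(ALPHA)1, were at background, so the sizes of their differences are uncertain. Both sets of differences use the same dA and WA arrays.

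Control probe sets for URA3, which no comparison of genes used, were lower in dA than in WA by -1.31 at the 3′ end, -1.25 in the middle and -1.12 at the 5′ end on the log2 scale.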

How the results depend on the processing

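Of 177 named genes called between dA and WA, 153 kept their call in each alternative fit of 1 probe set per gene at the same threshold, 153 at an adjusted p under 0.01 and 61 with a 2-fold minimum, and none of the 229 named genes changed direction with a call in those fits. Array quality weights raised the counts most, to 2375 genes (1152 higher, 1223 lower), 817 differences from the empty vector and 890 from insulin precursor. An adjusted p under 0.01 left 762 genes (265 higher), 15 and 35 differences, and a 2-fold minimum left 116 genes (16 higher, 100 lower), 15 and 18 differences. With only the strains compared in the fit, 17 genes differed from the empty vector and 327 from insulin precursor. Quantile normalization made 49.1% of the calls higher, against 41.4% as reported. Leaving out 1 array at a time of the strains compared, or dN replicate 3, gave 921 to 1833 called genes, 343 to 831 higher, 577 to 1002 lower, 28 to 400 differences from the empty vector and 48 to 361 from insulin precursor, with the highest value of each without dN replicate 3. The residuals of same-numbered dA and WA arrays had correlations of 0.0463, 0.0166 and -0.000723. For differently numbered dA and WA arrays they ran from -0.0507 to 0.0491. Whether cultures of the same number were run together was not tested. With the replicate number as a block, 1368 genes were called (565 higher, 803 lower), and 31 and 88 differences. The cause of these shifts was not tested. For 448 genes both strains were at background, where the arrays give no usable fold.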

Other observations

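Further genes had large differences between vectors. YLL066W-B, of unknown function, read 4.10, 4.31 and 4.11 in dA, against 5.36, 5.57 and 5.30 in WA, and its deletion effect differed below 0 from the empty vector (adjusted p = 0.00044) and from insulin precursor (adjusted p = 0.000773). All dA arrays of YLL066W-B were at background, so no size is given. YAR068W, also of unknown function, differed from the empty vector by -1.07 (adjusted p = 0.0023) and LYS1, saccharopine dehydrogenase, by -0.99 (adjusted p = 0.0159). FRE4, a siderophore reductase with all dA arrays at background, differed below 0 from the empty vector (adjusted p = 0.0166), and DDR2, a stress gene, by -1.71 from insulin precursor, and both lost the call without single arrays, DDR2 without any 1 of the 12. GPH1, glycogen phosphorylase, differed by 0.98 from the empty vector and YER078W-A, at background in all dN arrays, differed above 0, and both lost the call without WA replicate 2 or dA replicate 3. FCY21 differed above 0 from the empty vector (adjusted p = 0.0364) and from insulin precursor (adjusted p = 0.0403), neither kept in every fit without 1 array, and was at background in all arrays of dA, dN and dI, so no size is given. DSF1, GAC1, DAK2 and DAL80 were called too but were at background in both α-amylase strains.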
